A study of Mus musculus with 24 samples.

Results

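The 101 genes described here encode subunits of the mitochondrial respiratory chain and of the ATP synthase. They were chosen by patterns of the gene symbol from the 55487 genes of a count table of AML-12 cells, an established line of mouse hepatocytes. The nuclear genome carries 88 of them: 40 for complex I, 4 for complex II, 8 for complex III, 19 for complex IV and 17 for the ATP synthase (complex V). The other 13 are the protein genes of mitochondrial DNA, with 7 for complex I, 1 for complex III, 3 for complex IV and 2 for the ATP synthase. Symbols ending in -ps were left out. Complexes were assigned by the start of the symbol alone, which counts *Ndufa4* under complex I.

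Complexes I and II pass electrons from NADH and succinate to coenzyme Q, complex III passes them on to cytochrome c, and complex IV hands them to oxygen. Complexes I, III and IV pump protons as they do so, and the ATP synthase uses the returning protons to make ATP. All but complex II are built from both genomes, and hepatocytes depend on them to burn fatty acids. Mitochondrial genes are transcribed inside the organelle as long precursors that are cut into separate RNAs, so the 2 sets of genes are made by separate machineries.

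There were 6 groups of 4 libraries each. BSA received the albumin carrier and PAL received 0.25 mM palmitate, a saturated fatty acid, bound to it. The same 0.25 mM of palmitate was given to the remaining 4, which were also transfected with esiRNA, a pool of short silencing RNAs cut by an endoribonuclease, and collected 24 hours later. CON received 200 nM of esiRNA against *Egfp*, which these cells do not carry. BMAL1 received 100 nM against *Bmal1*, the clock activator, and CHREBP received 100 nM against *Chrebp*, a glucose-sensing transcription factor. BOTH received the pair at 200 nM in all. BMAL1 and CHREBP thus differed from CON, and also from BOTH, in total esiRNA dose as well as in target. In the labels each library name pairs a letter with a number. The number is 1 for BSA and PAL, 2 for CON and BMAL1 and 3 for CHREBP and BOTH, and the letters are A to D for BSA, CON and CHREBP and E to H for PAL, BMAL1 and BOTH. The labels do not say what the names stand for. Library number cannot be told apart from transfection in CON vs PAL, nor from *Chrebp* esiRNA in CHREBP or BOTH vs CON and in BOTH vs BMAL1. The letters differ in full between the groups of PAL vs BSA, CON vs PAL, BMAL1 vs CON, BOTH vs CON and BOTH vs CHREBP, so they cannot be told apart from the treatments compared there. The labels do not say that the 4 libraries of a group came from separate cultures, so p-values measure only the spread between these libraries.

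Gene counts ran from 5399700 to 11237474 per library. The normalized count of *Arntl* (*Bmal1*) was 30.1 to 57.5 in CON, 22.3 to 32.9 in BMAL1 and 16.6 to 30.9 in BOTH, so the ranges of the silenced groups met that of CON at its lowest library. That of *Mlxipl* (*Chrebp*) was 29.0 to 44.4 in CON, 22.1 to 32.7 in CHREBP and 11.5 to 21.9 in BOTH. Of 14 hepatocyte markers, *Ttr* and *Hnf4a* had mean normalized counts of 1406 and 1280 and *Alb* of 159, while *Apob* (23.7), *Fgb* (22.5), *Apoa1* (7.60), *Apoa2* (3.23) and *Ahsg* (2.28) were barely counted. Of the bile duct markers, *Krt19* and *Spp1* had 2635 and 9846. BOTH replicate 4 stood apart from all other libraries in its mitochondrial transcripts, and results that rest on it are given with and without it.

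Not every member could be followed. Of the 88 nuclear genes, 70 had a mean normalized count of at least 50 over the 24 libraries, 13 lay below that and 5 had no count at all. Of the 13 mitochondrial genes, 6 had a mean of at least 50: *mt-Nd1*, *mt-Nd2*, *mt-Nd4* and *mt-Nd5* of complex I, *mt-Cytb* (cytochrome b of complex III) and *mt-Co1* (the catalytic subunit of complex IV). *mt-Nd6*, which lies on the other strand, had 98 counts in all 24 libraries together. The remaining 6, *mt-Nd3*, *mt-Nd4l*, *mt-Co2*, *mt-Co3*, *mt-Atp6* and *mt-Atp8*, had 0 counts in every library, which allows up to 0.556 counts per 1000000 gene counts in the shallowest library and 0.267 in the deepest, for counting error only. No statement on the mitochondrial subunits of the ATP synthase, or on *mt-Co2* and *mt-Co3*, can therefore be drawn from these counts.

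The reads come from the 3′ ends of mRNAs, and stretches of mouse mitochondrial DNA are also present as copies in the nuclear genome. The 3′ ends of 2 well-counted genes and of 3 genes without counts are shown because they differ in this respect. Each line gives 60 bases, 5′ to 3′, of the mitochondrial plus strand (GRCm38, GENCODE M21 transcripts), and the capitals mark the 50 bases that were looked up in the transcripts of all other genes.
mt-Nd1, chrM:3648-3707: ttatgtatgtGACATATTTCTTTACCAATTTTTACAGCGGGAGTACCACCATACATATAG
mt-Cytb, chrM:15229-15288: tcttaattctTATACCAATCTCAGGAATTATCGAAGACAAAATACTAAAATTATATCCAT
mt-Co2, chrM:7637-7696: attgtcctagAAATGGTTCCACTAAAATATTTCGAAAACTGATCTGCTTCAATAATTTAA
mt-Atp6, chrM:8538-8597: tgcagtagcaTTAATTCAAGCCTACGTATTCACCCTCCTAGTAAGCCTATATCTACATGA
mt-Co3, chrM:9321-9380: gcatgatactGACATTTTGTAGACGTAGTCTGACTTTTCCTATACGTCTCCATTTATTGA
The capitals of *mt-Nd1* and *mt-Cytb* occur in no other gene. Those of *mt-Co2* occur in the pseudogene *Gm13341*, those of *mt-Atp6* in *Gm10925* and those of *mt-Co3* in *Gm28437*, where for *mt-Atp6* and *mt-Co3* the shown stretch ends 10 bases before the end of the gene.

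Over the last 400 bases of each gene, the share of such 50-base runs found in another gene was 98.0% for *mt-Nd3*, 98.8% for *mt-Nd4l*, 100.0% for *mt-Co2*, 99.7% for *mt-Co3* and 99.2% for *mt-Atp6*. It was 0% for *mt-Nd1*, *mt-Nd4*, *mt-Nd6* and *mt-Cytb*, 6.0% for *mt-Nd5* and 22.8% for *mt-Nd2*. The division was not complete in either direction: *mt-Atp8* shared 0% and had no count, and *mt-Co1* shared 100.0% and had 63267 counts. The lines of the table for reads that match several genes or several places were 0 in all libraries, and how such reads were handled was not stated. The part of shared sequence in the missing counts was not tested. Among nuclear members, 10 shared 50% or more of these runs, *Cox7c* (52.4%) and *Atp5h* (54.7%) among them, and their values below are uncertain to that extent. The same holds for the values of *mt-Co1*.

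Of all gene counts, the nuclear members took between 1.76% and 2.02% in every library, and the mitochondrial members took 1.21% to 2.79%. In CHREBP and BOTH the nuclear share was 1.88% ± 0.03 and 1.88% ± 0.10 (SD, n = 4), and it was 1.96% ± 0.01 in BSA, 1.98% ± 0.03 in PAL, and 1.96% ± 0.04 and 1.96% ± 0.03 in CON and BMAL1. The mitochondrial share of BSA was 2.62% ± 0.17 and that of PAL 2.38% ± 0.08. After transfection it was 2.43% ± 0.10 with the control esiRNA, 2.39% ± 0.04 in BMAL1, 2.28% ± 0.11 in CHREBP and 1.96% ± 0.53 in BOTH. The wide spread in BOTH came from replicate 4, at 1.21% against 1.99% to 2.42% in the other 3. Without it the mitochondrial share of BOTH was 2.21% ± 0.21 and the nuclear share 1.83% ± 0.06 (SD, n = 3). The nuclear genes thus held a narrow range in every group, with the lowest means in CHREBP and BOTH, while the mitochondrial share was highest in BSA.

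**Figure D1:**
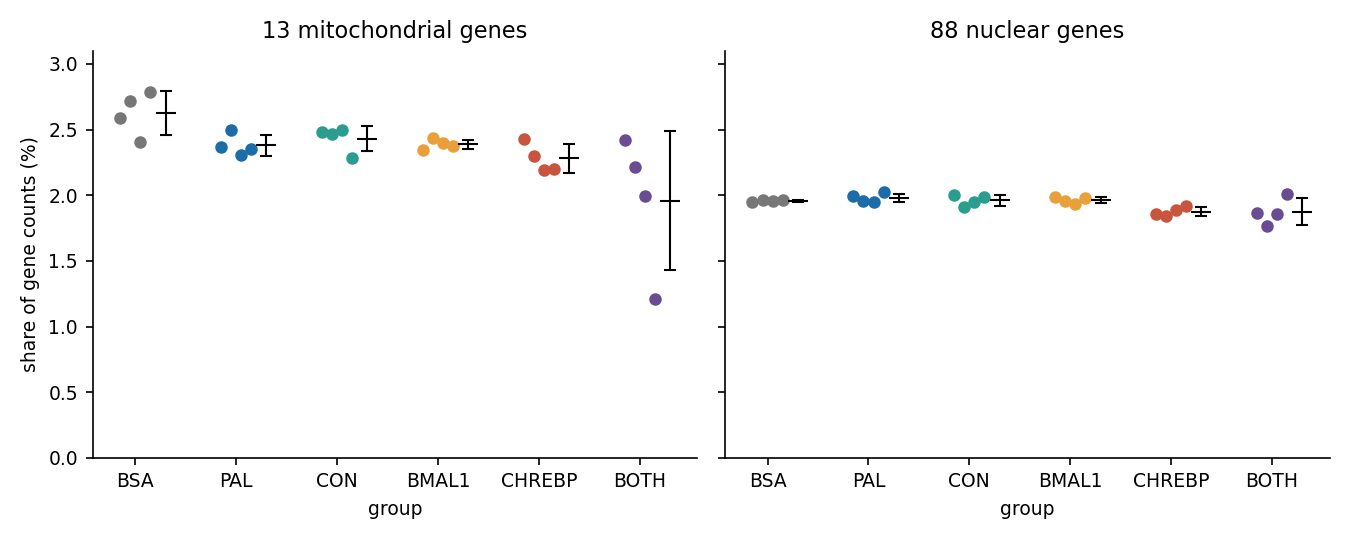
Share of all gene counts (%, vertical axis) taken by the 13 mitochondrial genes (left) and the 88 nuclear genes (right) in the 6 groups. Points are libraries, and bars beside them give the mean and SD of the 4. The nuclear share stays between 1.76% and 2.02%, and the lowest mitochondrial point, 1.21%, is BOTH replicate 4.

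The ratio of mitochondrial to nuclear counts needs no scaling between libraries, because both sums come from the same library. On the log2 scale BSA had a ratio of 0.42 ± 0.09 and PAL of 0.27 ± 0.06 (SD, n = 4), and the ratio was 0.31 ± 0.08, 0.28 ± 0.04 and 0.28 ± 0.09 in CON, BMAL1 and CHREBP. In BOTH it was 0.37, 0.33, 0.10 and -0.74 for replicates 1 to 4. The log2 ratio was lower by 0.16 in PAL than in BSA, with a pooled SD of 0.08, and the groups overlapped. Without *mt-Nd1*, the mitochondrial gene with most counts, the difference was -0.27. It was 0.29 lower in BOTH than in CON, with a pooled SD of 0.37, and 0.04 lower without BOTH replicate 4. The other steps, CON vs PAL, BMAL1 vs CON and CHREBP vs CON, differed by 0.04, -0.03 and -0.03, each below the pooled SD. These differences were given no test, since the ratio is a score over the members.

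With palmitate (PAL vs BSA), 3 mitochondrial genes fell and the nuclear genes showed no common direction. *mt-Cytb* fell by 0.24 on the log2 scale, *mt-Nd4* by 0.27 and *mt-Nd2* by 0.20, which are decreases of 13% to 17%. In the nuclear set, *Ndufa6* fell, and *Atp5b* and *Atp5j* rose. Over all genes 14.3% were called in this comparison, 6.65% higher and 7.6% lower, so that 3 of 77 nuclear members tested (3.9%) lay below that share and 3 of 7 mitochondrial ones above it.

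*mt-Cytb* had normalized counts of 36664, 37966, 34968 and 34164 in BSA and of 30047, 31542, 28159 and 31661 in PAL. Each PAL library lay below each BSA library (SE 0.05, adjusted p = 0.000236, DESeq2). *mt-Nd2*, a membrane subunit of complex I, had 22216, 23782, 21318 and 21514 in BSA and 20326, 20230, 18858 and 17838 in PAL, again with no overlap (SE 0.06, adjusted p = 0.00731, DESeq2). *mt-Nd4*, another membrane subunit of complex I, had 29510, 31929, 27779 and 29807 in BSA and 25191, 28785, 20728 and 23831 in PAL. Here PAL replicate 2 reached into the BSA range (SE 0.08, adjusted p = 0.00812, DESeq2). The 3 calls held when any 1 of the 8 libraries was left out.

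Markers of cell types moved in the same comparison, though not all in 1 direction. The normalized counts of 14 hepatocyte markers summed to 40835 to 43644 in BSA and 51400 to 56823 in PAL. Most of these sums was *Krt18* and *Krt8*, with mean normalized counts of 31160 and 12863 over the 24 libraries. Of the 12 tested, the keratin genes *Krt8* and *Krt18* rose, by 0.37 and 0.45 on the log2 scale. Another 4 fell, *Alb* (albumin) by 0.97 and *Ttr* (transthyretin) by 0.30 among them. The median log2 fold change of the 12 was -0.27. The 7 bile duct markers summed to 18289 to 20009 in BSA and 15821 to 17077 in PAL, where *Spp1* fell by 0.48 and *Krt19* rose by 0.53 on the log2 scale. *Spp1*, with a mean of 9846 over the 24 libraries, held the larger part of that sum. *Epcam* did not pass 2.83 in any BSA or PAL library. The part of these shifts in the member values was not tested.

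The mitochondrial genes did not move alike. *mt-Nd1*, with 92606 to 122961 in BSA and 100478 to 106685 in PAL, differed by -0.03 (95% interval -0.17 to 0.10), and *mt-Co1* by -0.02 (-0.17 to 0.13). The 3′ runs of *mt-Co1* were all shared with another gene, so its value is uncertain. *mt-Nd5* differed by -0.12 (-0.28 to 0.04, adjusted p = 0.416, DESeq2). All of the mitochondrial protein genes but *mt-Nd6* are read from the same strand. Of the mitochondrial rRNAs, *mt-Rnr2* (16S) fell by 0.31 on the log2 scale (SE 0.06, adjusted p = 2.34e-05, DESeq2). *mt-Rnr1* (12S) was not called, with 19480 in PAL replicate 1 against 10048 to 11186 in the other PAL libraries.

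**Figure D2:**
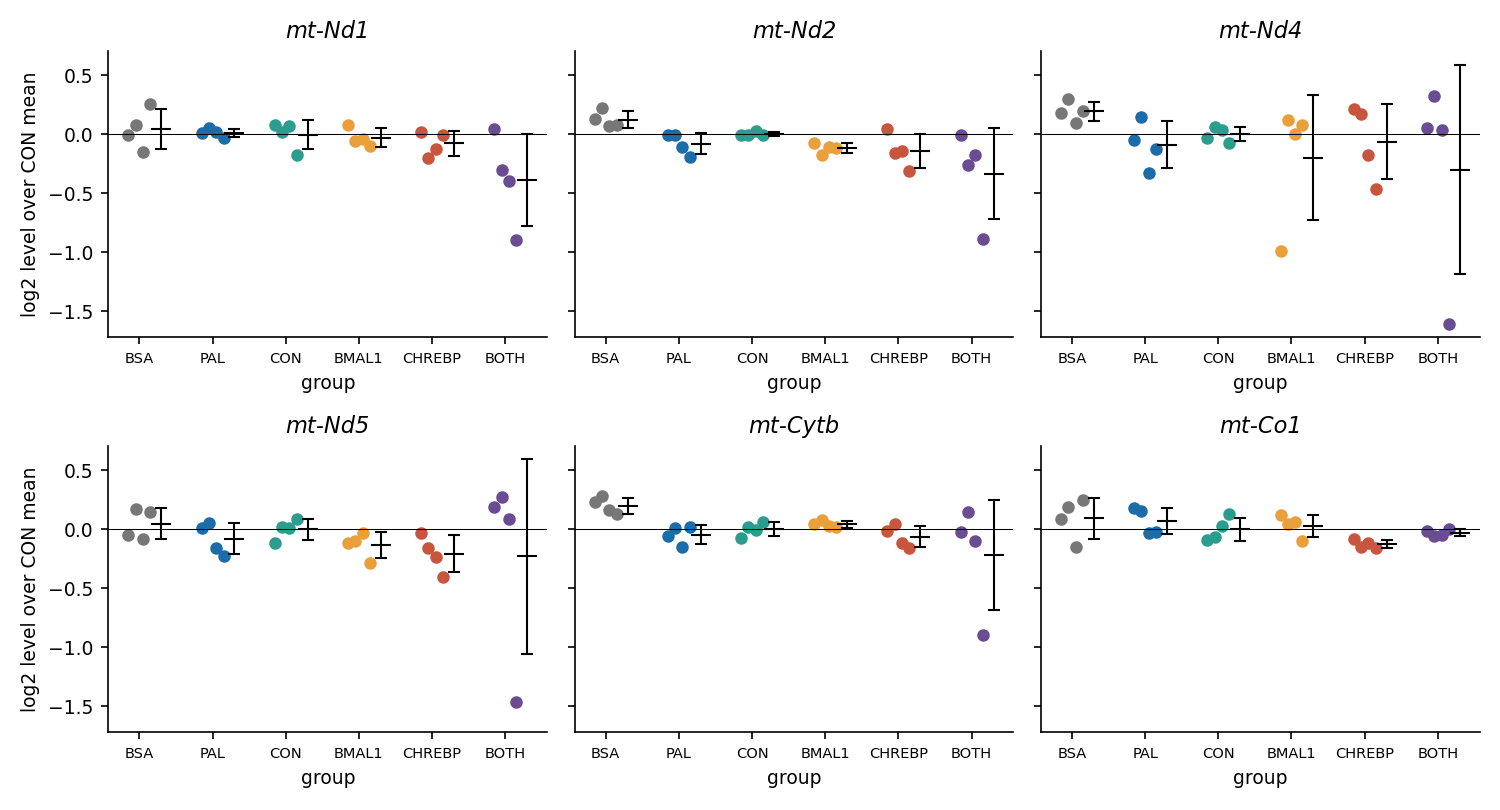
Level of the 6 mitochondrial genes that could be followed, as log2 of the normalized count over the mean of CON (vertical axes), in the 6 groups (horizontal axes). Points are libraries and bars give the mean and SD of the 4. *mt-Cytb*, *mt-Nd2* and *mt-Nd4* sit higher in BSA than in PAL, and BOTH replicate 4 is the lowest point for *mt-Nd1*, *mt-Nd2*, *mt-Nd4*, *mt-Nd5* and *mt-Cytb* but not for *mt-Co1*.

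*Atp5b* encodes the catalytic beta subunit of the ATP synthase. Its normalized counts were 14247, 13814, 13903 and 14231 in BSA and 16660, 14525, 16246 and 15908 in PAL, without overlap (log2 fold change 0.18, SE 0.05, adjusted p = 0.00683, DESeq2). *Atp5j* encodes coupling factor 6 of its stalk, with 1093, 1161, 1247 and 1065 in BSA and 1366, 1285, 1334 and 1255 in PAL (log2 fold change 0.20, SE 0.07, adjusted p = 0.0333, DESeq2). The gene overlaps *Gabpa* on the other strand, and its call was lost without BSA replicate 1 or 4 or PAL replicate 1 or 3.

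No other nuclear member was called. The median log2 fold change was 0.02 over the 77 nuclear genes tested, -0.20 over the 7 mitochondrial genes and 0.00 over all genes. The 7 include *mt-Nd6*, which had few counts (log2 fold change -1.01, SE 0.90). For the 4 mitochondrial genes of complex I with a mean of at least 50 the median was -0.16. By complex, the medians over nuclear genes with a mean of at least 50 were 0.02 for complex I, 0.01 for complex II, 0.01 for complex III, 0.02 for complex IV and 0.04 for the ATP synthase. For 63 of the 77 the 95% interval of the change stayed within ±0.32, a fold of 1.25. Some uncalled genes had larger estimates than the called ones, such as *Atp5mpl* at 0.30 (SE 0.13, adjusted p = 0.121, DESeq2), whose groups did not overlap, and *Cox4i1* at 0.31 (SE 0.38).

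**Figure D3:**
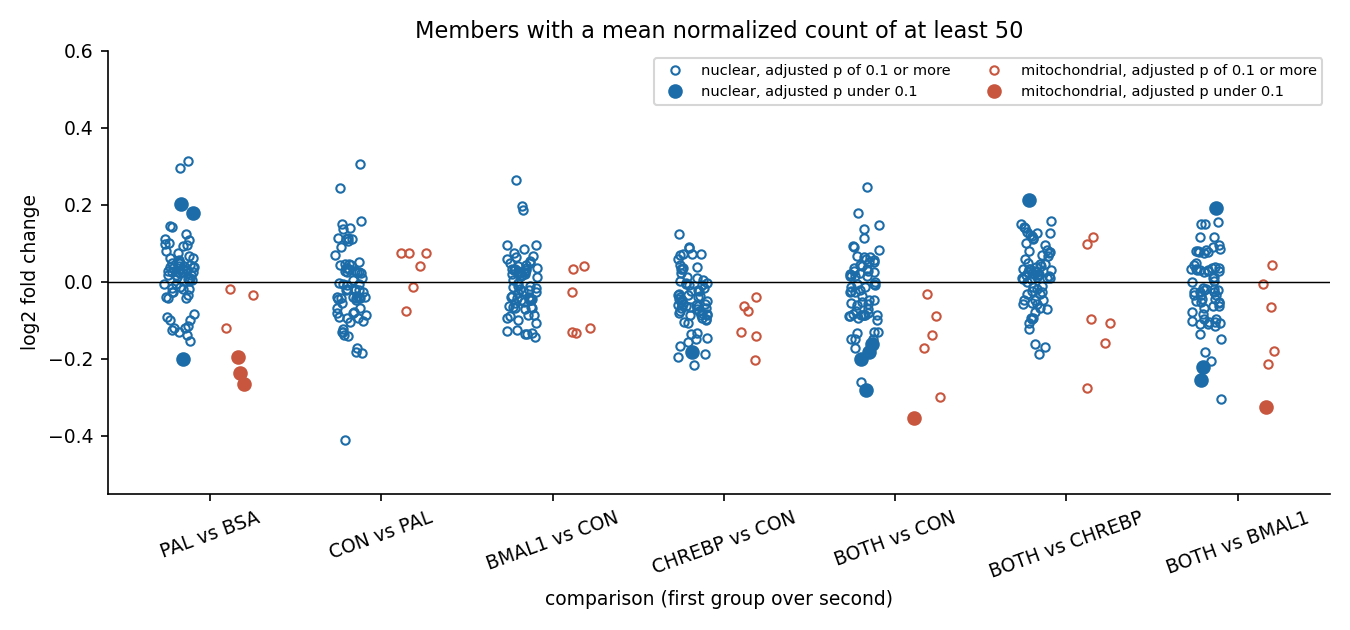
Log2 fold change (vertical axis, first group over second) of the members whose mean normalized count was 50 or more, for 7 comparisons (horizontal axis). Blue points are nuclear genes, red points mitochondrial genes, and filled points have an adjusted p under 0.1. The nuclear points gather around 0 in each comparison, and the 3 filled red points of PAL vs BSA are *mt-Nd2*, *mt-Cytb* and *mt-Nd4*.

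Transfection with the control esiRNA (CON vs PAL) and silencing of *Bmal1* (BMAL1 vs CON) gave no called member in the fits over 8 and 16 libraries. In CON vs PAL, DESeq2 called 0 of 77 nuclear and 0 of 6 mitochondrial genes, where 2.51% of all genes were called. An unadjusted p under 0.05 was reached by 7 nuclear genes, or 10 with edgeR, which also called 0. The intervals of 64 nuclear and 6 mitochondrial genes stayed within ±0.32. In BMAL1 vs CON, 0 of 77 and 0 of 7 were called by either tool against 0.49% of all genes. DESeq2 gave an adjusted p to only 70 of these nuclear and 6 of these mitochondrial genes, and to 8500 of the 13883 genes tested. With each tool 2 nuclear genes had an unadjusted p under 0.05, and 65 nuclear intervals stayed within ±0.32. Of the 7 mitochondrial intervals only 3 did, those of *mt-Co1*, *mt-Cytb* and *mt-Nd1*. The interval ran from -0.81 to 0.54 for *mt-Nd4*, from -0.66 to 0.40 for *mt-Nd5* and from -0.35 to 0.11 for *mt-Nd2*. *mt-Nd4* was 13129 in BMAL1 replicate 1 and 28206, 26063 and 27416 in the others, and the 16 libraries of the fit include BOTH replicate 4. *mt-Nd2* had 20277, 20232, 20705 and 20252 in CON and 19341, 18009, 18942 and 18735 in BMAL1, without overlap. With the 2 groups alone, where 1.11% of all genes were called, it was the 1 member called (log2 fold change -0.12, SE 0.04, adjusted p = 0.0999, DESeq2). The count over all genes was itself unsteady here: the 68 called became 16 without CON replicate 3 and 107 without CON replicate 1, 14 with edgeR and 144 with the 2 groups alone.

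With silencing of *Chrebp* (CHREBP vs CON), *Ndufa6* fell and no other member was called, where 3.42% of all genes were. That call was lost with the replicate number as a block and with edgeR, which called 0 members. With the 2 groups alone, where 4.69% of all genes were called, *Ndufa6*, *Atp5g3* (-0.14) and the ATP synthase gene *Atp5d* (-0.22), named after its values were seen, were. The medians were -0.04 for the nuclear genes, -0.08 for the 7 mitochondrial genes tested, *mt-Nd6* among them, and 0.00 for all genes. Of the nuclear intervals, 62 stayed within ±0.32. *mt-Co1*, at 2421 to 2815 in CON and 2308 to 2436 in CHREBP, differed by -0.13 (SE 0.06, adjusted p = 0.355, DESeq2).

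With both genes silenced (BOTH vs CON), 4 nuclear members (*Atp5g3*, *Atp5h*, *Cox7c* and *Ndufa6*) fell and none rose, and *mt-Nd1* fell as well. Over all genes 9.73% were called, 5.99% higher and 3.75% lower, so the 4 of 77 lower members (5.2%) compare with 3.75%. With total counts as size factors, 5.01% of all genes were higher and 5.49% lower, and the number of called nuclear members was again 4. The calls of *Cox7c* and *Ndufa6* were lost with edgeR, with the replicate number as a block and with the 2 groups alone. *Atp5g3*, which encodes the proton-carrying subunit c of the ATP synthase, had normalized counts of 6659, 6584, 6436 and 7057 in CON and 5363, 5538, 6184 and 6211 in BOTH. The groups did not overlap (log2 fold change -0.20, SE 0.06, adjusted p = 0.0134, DESeq2), and the call held without any 1 library. *Atp5h*, subunit d of the stalk, had 4087, 4399, 4260 and 3892 in CON and 3549, 3003, 3782 and 3384 in BOTH, also without overlap (log2 fold change -0.28, SE 0.08, adjusted p = 0.00732, DESeq2).

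*Cox7c*, a small subunit of complex IV, had 1699, 1635, 1717 and 1689 in CON and 1316, 1469, 1523 and 1641 in BOTH (log2 fold change -0.18, SE 0.07, adjusted p = 0.0969, DESeq2). BOTH replicate 4 reached into the CON range, and of the 8 fits that left out 1 library only that without BOTH replicate 4 kept the call. In BOTH vs BMAL1 *Cox7c* fell by 0.22 on the log2 scale (SE 0.07, adjusted p = 0.0238, DESeq2), a call that was lost without BOTH replicate 1.

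*mt-Nd1* had 108496, 104054, 107794 and 90748 in CON and 105793, 83431, 77948 and 55278 in BOTH. The log2 fold change was -0.35 (SE 0.12, adjusted p = 0.0495, DESeq2), and -0.21 without BOTH replicate 4 (adjusted p = 0.125, DESeq2). The call was also lost without BOTH replicate 2 or 3 or CON replicate 1, 2 or 3, without a count filter and with the 2 groups alone.

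In BOTH replicate 4 the mitochondrial mRNAs were not lowered alike. Set against the mean of the other 3 BOTH libraries, *mt-Nd4* stood at 29.7%, *mt-Nd5* at 31.9%, *mt-Cytb* at 53.3%, *mt-Nd2* at 59.6% and *mt-Nd1* at 62.1%, while *mt-Co1* stood at 103%. The value of *mt-Co1* is uncertain, as its 3′ runs were all shared with another gene. The 12S rRNA was 11038 against 10230 to 11224, and the 16S rRNA was 47462 against 83480 to 93260. Its nuclear share of 2.01% was the highest of the 4 BOTH libraries, and its 8169508 gene counts lay within their range.

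Without BOTH replicate 4, BOTH vs CON called 8 nuclear members, all lower, and 0 mitochondrial ones, where 11.3% of all genes were called and 4.66% were lower. Beside these 4 they were *Cox6a1* (-0.24), *Ndufa2* (-0.21), *Ndufa4* (-0.15) and *Ndufb11* (-0.12). *Ndufa2* and *Ndufb11* are complex I subunits named here after their values were seen. *mt-Nd5* also depended on that library. It had 1378, 1466, 1287 and 440 in BOTH and 916 to 1183 in CHREBP. Its log2 fold change in BOTH vs CHREBP was 0.12 (SE 0.27) over all libraries, and 0.39 without that library (SE 0.08, adjusted p = 0.0016, DESeq2), where 1.57% of all genes were called.

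The interaction of the 2 esiRNAs asks whether the effect of one depends on the other. CON and BOTH received 200 nM in all, and BMAL1 and CHREBP 100 nM. The interaction therefore cannot be told apart from an effect of total esiRNA dose. It called 0 of 77 nuclear and 0 of 7 mitochondrial members by DESeq2 and by edgeR, against 1.47% of all genes. With each tool, 4 nuclear genes reached an unadjusted p under 0.05. DESeq2 gave an adjusted p to 70 of the nuclear and 6 of the mitochondrial genes. Without BOTH replicate 4, when 2.11% of all genes were called, *mt-Nd5* had an interaction of 0.52 on the log2 scale (SE 0.12, adjusted p = 0.00278, DESeq2).

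In BOTH vs CHREBP, where 0.994% of all genes were called, *Cox6c* of complex IV rose by 0.21 (SE 0.06, adjusted p = 0.0633, DESeq2). It had 2113, 1830, 1947 and 2005 in CHREBP and 2486, 2157, 2116 and 2384 in BOTH, with no overlap, and the call was lost without BOTH replicate 1 or CHREBP replicate 2, 3 or 4, with edgeR and with the 2 groups alone. In BOTH vs BMAL1, 10.4% of all genes were called. Here *Ndufa6*, *Cox7c*, *Cox7a1* and *mt-Nd1* fell, and *Ndufb7* rose from 656, 618, 689 and 672 to 771, 752, 696 and 792 (log2 fold change 0.19, SE 0.07, adjusted p = 0.0736, DESeq2). The call of *Ndufb7* was kept only without BMAL1 replicate 3 or BOTH replicate 3, and that of *mt-Nd1* (-0.33, adjusted p = 0.0735, DESeq2) only without BOTH replicate 1, and both were lost with the 2 groups alone. Without BOTH replicate 4, 12.4% of all genes, 8 nuclear members and *mt-Nd5* (0.31) were called.

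*Ndufa6* was the nuclear member called most often. It encodes an accessory subunit of complex I of the LYR family, and lies on the minus strand of chromosome 15 (chr15:82350140-82354322, GRCm38), with no overlapping gene and no shared 3′ run. Its normalized counts were 2400, 2608, 2696 and 2630 in BSA, and 2164, 2159, 2377 and 2252 in PAL. They were 2197, 2005, 2133 and 2117 in CON, and 2425, 2293, 2227 and 2089 in BMAL1. They were 1806, 1759, 1897 and 2000 in CHREBP, and 1909, 1901, 1829 and 1928 in BOTH. All BSA libraries lay above all PAL and CON libraries, and all CHREBP and BOTH libraries lay below all libraries of the other 4 groups.

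*Ndufa6* fell by 0.20 on the log2 scale in PAL vs BSA (SE 0.06, adjusted p = 0.0107, DESeq2) and by 0.26 in BOTH vs BMAL1 (SE 0.06, adjusted p = 0.000658), and both calls held without any 1 library. It fell by 0.18 in CHREBP vs CON (SE 0.06, adjusted p = 0.0723, DESeq2), kept only without CHREBP replicate 4 or CON replicate 2. It fell by 0.16 in BOTH vs CON (SE 0.06, adjusted p = 0.082, DESeq2), kept only without BOTH replicate 4 or CON replicate 2. Both of these calls were lost with edgeR and with the replicate number as a block. In CON vs PAL it differed by -0.09 (SE 0.06), in BMAL1 vs CON by 0.09 (SE 0.06) and in BOTH vs CHREBP by 0.02 (SE 0.06), none of them called. CHREBP and BOTH, the groups with the lowest values, shared library number 3, and that number cannot be told apart from *Chrebp* esiRNA.

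**Figure D4:**
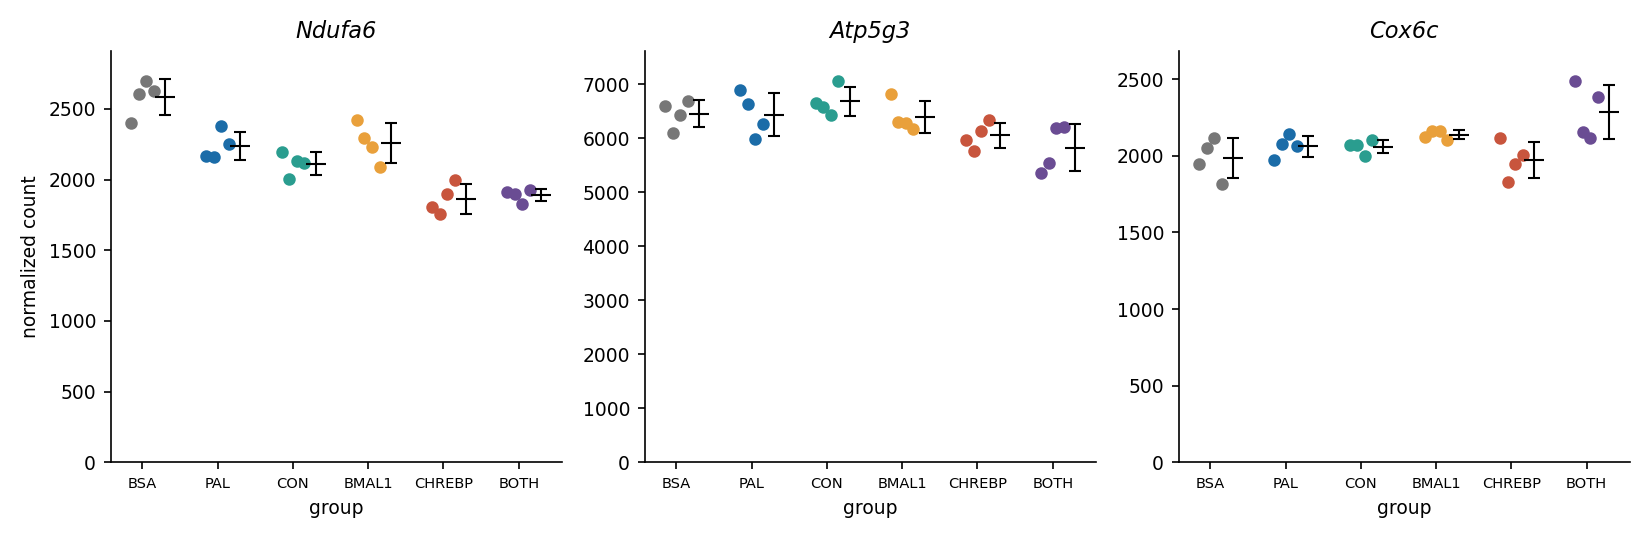
Normalized counts (vertical axes, starting at 0) of *Ndufa6*, *Atp5g3* and *Cox6c* in the 6 groups (horizontal axes). Points are libraries and bars give the mean and SD of the 4. *Ndufa6* is highest in BSA (2400 to 2696) and lowest in CHREBP and BOTH (1759 to 2000).

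In 1 test for any difference among the 6 groups, 24.1% of all genes were called, and 11 of 78 nuclear (14.1%) and 2 of 7 mitochondrial members. *Ndufa6* had the lowest adjusted p of the members (1.6e-17, DESeq2 likelihood ratio test). The others were *Atp5mpl*, *Uqcrc2*, *Atp5j*, *Cox6c*, *Ndufs7*, *Ndufa11*, *Atp5g3*, *Atp5o*, *Cox7c* and *Ndufb9*, with *mt-Nd2* and *mt-Nd1*, of which those not met above are named after their values were seen. Without BOTH replicate 4, 26.6% of all genes, 19 nuclear and 4 mitochondrial members were called. *mt-Nd1* then lost its call (adjusted p = 0.184), *mt-Nd2* kept it (0.000435), and *mt-Cytb* (0.000198), *mt-Nd5* (0.000971) and *mt-Co1* (0.0837) gained one in the same DESeq2 test. *Atp5mpl*, a small ATP synthase subunit, had the highest ratio between group means among the 70 nuclear genes with a mean of at least 50, from 181 ± 19.7 in BSA to 261 ± 23.9 in CON (SD, n = 4). *Uqcrc2*, a core subunit of complex III, went from 2027 ± 189 in BMAL1 to 2481 ± 147 in BSA, but its whole 3′ end lies over *Pdzd9* on the other strand. The highest group mean over the lowest was below 1.25 for 66 of the 70 nuclear genes, with a median of 1.12, and for 2 of the 6 mitochondrial genes, with a median of 1.27. Without BOTH replicate 4 the ratio was below 1.25 for 65 of the 70 nuclear genes, with a median of 1.12, and for 4 of the 6 mitochondrial genes, with a median of 1.20.

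Complex II, the only complex without a mitochondrial gene, was called in no comparison. *Sdha*, its FAD-carrying subunit, ran from 1513 to 1839 over the 24 libraries, *Sdhb*, the iron-sulfur subunit, from 695 to 966, and the membrane anchors *Sdhc* and *Sdhd* from 1930 to 2544 and from 811 to 1119. Group means of *Sdha* lay between 1595 ± 88.6 in BMAL1 and 1710 ± 23.3 in PAL.

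Several subunits have isoforms that belong to other tissues, and the cells held the common ones. *Cox4i2*, *Cox6a2*, *Cox6b2* and *Ndufa4l2* did not pass a normalized count of 6.71 in any library, and *Cox7b2*, *Cox8b* and *Cox8c* had no count. Their partners *Cox6a1* (673 to 1041), *Cox6b1* (2938 to 3435), *Cox7b* (1937 to 2237), *Cox8a* (1746 to 3482) and *Ndufa4* (8373 to 10527) were counted in all libraries. *Cox7a1*, the heart and muscle form, was low but present, at 38.0, 17.0, 19.2 and 25.6 in BMAL1 and 4.42, 14.1, 4.62 and 14.4 in BOTH (log2 fold change -1.36, SE 0.47, adjusted p = 0.0433, DESeq2). That call was lost without BMAL1 replicate 1 or 4 or BOTH replicate 1 or 3. *Cox7a2* ran from 786 to 969 and *Cox7a2l* from 329 to 440.

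There are 3 genes for subunit c of the ATP synthase, which code for the same mature protein. *Atp5g1* ran from 923 to 1169 and *Atp5g2* from 15.7 to 50.3, and neither was called in any comparison. In BOTH vs CON the log2 fold change was -0.02 for *Atp5g1* (SE 0.07), -0.17 for *Atp5g2* (SE 0.27) and -0.20 for the called *Atp5g3* (SE 0.06), and differences between the 3 were not tested. *Cox4i1* varied most within groups of all nuclear members with a mean of at least 50, at 29.8% (coefficient of variation within groups) against a median of 6.39%. Its values in PAL were 4587, 3026, 4614 and 8978, and its overlap with *Emc8* on the other strand and *Gm20388* on its own makes them uncertain.

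The promoters of *Ndufa6* and *Atp5g3* are shown because these nuclear genes overlap no other gene, share no 3′ run with one, and had a call between a pair of groups that held without any 1 library. *Atp5b* and *Atp5h* had such calls too, but *Atp5b* overlaps small RNA genes and shared 4.56% of its 3′ runs with *Gm4707*, and *Atp5h* shared 54.7%. Both lie on the minus strand and are printed 5′ to 3′ up to the base before the annotated gene (RefSeq, GRCm38.p6). The capitals mark matches to an E-box and to an estrogen-related receptor (ERR) element.
Ndufa6, chr15:82354323-82354541: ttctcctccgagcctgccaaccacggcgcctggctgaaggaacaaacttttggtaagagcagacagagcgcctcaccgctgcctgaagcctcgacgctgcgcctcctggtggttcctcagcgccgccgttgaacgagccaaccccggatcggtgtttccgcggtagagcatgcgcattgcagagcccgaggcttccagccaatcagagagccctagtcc
Atp5g3, chr2:73911327-73911576: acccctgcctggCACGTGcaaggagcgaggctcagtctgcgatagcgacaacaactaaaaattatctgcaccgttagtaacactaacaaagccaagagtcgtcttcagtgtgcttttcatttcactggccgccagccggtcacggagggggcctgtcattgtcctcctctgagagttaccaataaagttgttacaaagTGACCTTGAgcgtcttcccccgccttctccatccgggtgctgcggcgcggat
In *Atp5g3* the E-box lies 238 bases before the start site and the ERR element 52 bases before it. The printed bases of *Ndufa6* hold none of the motifs searched.

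Motifs were searched on both strands of windows from 250 bases before to 50 bases after the start site, which were given for 67 of the 87 nuclear symbols (72 windows). The site of NRF1, a regulator of respiratory genes (CGCATGCG), was in 12.5% of member windows and 1.87% of all 32851 windows. The YY1 site (AAGATGGC) was in 12.5% and 2.75%, the ETS site bound by GABPA (CCGGAAGT) in 6.94% and 3.89%, and the ERR element (TNAAGGTCA) in 4.17% and 1.28%. The E-box bound by BMAL1 and its partner (CACGTG) was in 8.33% and 7.15%, and the GC box (GGGCGG) in 38.9% and 35.7%. An exact form of the carbohydrate response element (ChoRE), to which CHREBP binds, was in 0 of the member windows and 0 of all windows. Since it matched no window at all, its absence from the member windows says nothing about them. All of these shares are matches of letters, given without a test.

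The genes that make and regulate the complexes were counted alongside. In PAL vs BSA, 8 of 78 mitochondrial ribosomal proteins (10.3%) rose and none fell, for example *Mrpl18* (0.26) and *Mrpl52* (0.25), and 25 of 83 cytosolic ribosomal proteins (30.1%) rose, where 6.65% of all genes did. The median log2 fold changes of these lists were 0.12 and 0.10, beside 0.00 over all genes. Among 48 assembly factors 3 rose (6.25%), a share close to that of all genes, with the copper chaperone *Sco1* (0.61) and *Cox20* (0.40) of complex IV, and *Tmem70*, which helps to build the ATP synthase, fell by 0.25 on the log2 scale. Of 14 related chain genes outside the members, 1 rose and 1 fell. Of 12 regulators of mitochondrial biogenesis tested, 2 fell (16.7%), where 7.6% of all genes did: *Esrra*, the ERR alpha gene, fell by 0.28 and *Hif1a* by 0.24 on the log2 scale.

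In BMAL1 vs CON, where 0.49% of all genes were called, 1 of 48 assembly factors (2.08%), *Sdhaf3* of complex II, fell, by 0.52 on the log2 scale (adjusted p = 0.029, DESeq2). In CHREBP vs CON, 1 of 78 mitochondrial ribosomal proteins, 1 of 48 assembly factors, 1 of 32 genes of mitochondrial DNA expression and 1 of 13 regulators were called, where 3.42% of all genes were. In BOTH vs CON the numbers were 5, 6, 1 and 2, or 6.41%, 12.5%, 3.12% and 15.4%, where 9.73% of all genes were called. *Pnpt1*, an RNA-degrading enzyme of mitochondria, was 159 to 200 in CON, 251 to 431 in CHREBP and 385 to 519 in BOTH. It rose by 0.87 in CHREBP vs CON (SE 0.15, adjusted p = 6.3e-07, DESeq2) and by 1.33 in BOTH vs CON (SE 0.15, adjusted p = 2.25e-17). *Cox18*, which inserts a complex IV subunit into the membrane, rose by 0.68 and 1.10, and *Mrpl30* by 0.36 and 0.68. *Pprc1*, a coactivator of respiratory genes, rose by 0.39 and *Myc* by 0.51 in BOTH vs CON. Interferon response genes rose in the same comparisons, 25 of 25 in each, while 20 of 23 rose in CON vs PAL and 13 of 25 fell in BMAL1 vs CON. Of 13883 genes tested, 368 rose in CHREBP vs CON, 831 rose in BOTH vs CON and 45 fell in BMAL1 vs CON. In CON vs PAL, 206 of 12928 rose. The normalized counts of the interferon response genes summed to 58738 to 100153 per library in BOTH and 30500 to 63469 in CHREBP, against 1682 to 10358 in CON and 1894 to 2628 in BMAL1. *Ndufa6* was lowest in BOTH and CHREBP, where these sums were highest, and the part of the interferon response in the member values was not tested.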

How the data were processed

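RNA was measured in 24 libraries by BRB-seq, which barcodes samples before pooling and reads the 3′ ends of mRNA. STAR was used by the authors for alignment to mm10, HTSeq and featureCounts are both named as counters, and the authors deposited raw whole-number counts without normalization. Versions, annotation release, strand use and molecular identifiers are not given in the sources used here. The 5 summary lines of the table were left out of totals and tests. Between 24.9% and 28.0% of reads of a library were listed as not aligned.

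Members were the genes whose symbol matched fixed patterns for chain and ATP synthase subunits. A separate list held 14 related genes outside these patterns, such as *Cyc1*, *Ndufab1* and coenzyme Q enzymes. The members and gene lists were chosen with earlier results of these data known. Annotation came from GENCODE M21 (GRCm38).

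Genes whose counts summed to 25 or more in a fit were tested with DESeq2 1.42.0 (R 4.3.3), with an adjusted p under 0.1 over all genes as the call: Wald tests on 8 libraries for PAL vs BSA and CON vs PAL, on 16 for the esiRNA comparisons and their interaction, and a likelihood ratio test on 24. PAL enters as treated group in PAL vs BSA and as reference in CON vs PAL, and CON, BMAL1, CHREBP and BOTH each enter several comparisons. Normalized counts are counts divided by the DESeq2 size factors of all 24 libraries. Intervals are 95% Wald intervals. Named were the mitochondrial genes, the Sdh genes, genes with tissue isoforms, and in each comparison up to 5 called nuclear members in each direction with a mean of at least 50 and up to 3 called genes of a list. Alternatives were edgeR 4.0.16 with TMM, no count filter, total counts as size factors, size factors without the members, the replicate number as a block, the 2 groups alone and each library left out. The fits were tested on simulated data.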

Additional observations from a re-analysis of the deposited data

Results flagged for a closer look

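Among 114 groups of 4 values checked for a library far from its group, 4 had one, where chance gives about 5%. The mitochondrial share of counts in CON had a low library, replicate 4, at 2.29%. *mt-Nd2* in CON had a high library at 20705, in a group whose other values were 20232 to 20277. *mt-Nd4* in BMAL1 had a low library at 13129, and *Atp5h* in BMAL1 had a low one at 3286.

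Counts outside the members were found in 2 related rows. *Ndufb1-ps*, the row of a complex I subunit whose name carries -ps, had 8868 counts, between 222 and 559 per library. *Gm13341*, the nuclear copy of *mt-Co2*, had 3750 counts, between 84 and 207 per library, the lowest in BOTH replicate 4.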

How the results depend on the processing

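No called value reversed under any alternative. The calls of *mt-Cytb*, *mt-Nd2*, *mt-Nd4*, *Atp5b* and *Ndufa6* in PAL vs BSA, *Atp5g3* and *Atp5h* in BOTH vs CON and *Ndufa6* in BOTH vs BMAL1 held under all alternatives. The cause of the following shifts was not tested. With the 2 groups alone, the numbers of called members were 1 mitochondrial in BMAL1 vs CON, 3 nuclear in CHREBP vs CON, 2 nuclear and 0 mitochondrial in BOTH vs CON, 0 nuclear in BOTH vs CHREBP and 0 mitochondrial in BOTH vs BMAL1. Over all genes, those fits called 144, 611, 975, 80 and 973 in turn, against 68, 475, 1351, 138 and 1448 in the main fits. edgeR called 0 nuclear members in CHREBP vs CON, 2 in BOTH vs CON and 0 in BOTH vs CHREBP, where over all genes it called 394, 1185 and 53. With total counts as size factors, 2 mitochondrial members were called in BOTH vs CON, 8 nuclear in BOTH vs BMAL1 and 4 mitochondrial over the 6 groups. Over all genes that setting called 1458, 1637 and 3651, against 1351, 1448 and 3503 in the main fits. Without a count filter, 0 mitochondrial members were called in BOTH vs BMAL1 and 1 over the 6 groups, where 1404 and 3361 of all genes were called.

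Leaving out 1 library at a time, the number of called nuclear members ran from 2 to 5 in PAL vs BSA, 0 to 1 in CON vs PAL, 0 to 1 in CHREBP vs CON, 2 to 8 in BOTH vs CON, 0 to 1 in BOTH vs CHREBP, 2 to 8 in BOTH vs BMAL1, 0 to 1 for the interaction and 9 to 19 over the 6 groups. That of mitochondrial members ran from 0 to 2 in BOTH vs CON, 0 to 1 in BOTH vs CHREBP, in BOTH vs BMAL1 and for the interaction, and 1 to 4 over the 6 groups. The highest counts, 8, 8 and 19 nuclear and 4 mitochondrial, came without BOTH replicate 4, and the 5 in PAL vs BSA without PAL replicate 2. Over all genes, the numbers called ran from 1355 to 1602 in PAL vs BSA and 335 to 439 in CHREBP vs CON. They ran from 1049 to 1561 in BOTH vs CON, 1145 to 1716 in BOTH vs BMAL1 and 3100 to 3843 over the 6 groups.

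The replicate numbers are shared between groups, but the labels do not say that they pair the libraries. The lowest correlation of same-numbered deviations was 0.02 in BOTH vs CON and between -0.28 and -0.01 in the other 6 pairs of groups, and between 0 and 6 of the 8 libraries correlated best with their own number. With the replicate block, 2 nuclear and 2 mitochondrial members were called in BOTH vs CON, and other counts of called members stayed within 1.5 times, although in CHREBP vs CON *Ndufa6* lost its call and 1 other nuclear member was called. Over all genes, the block called 1246 in BOTH vs CON and 446 in CHREBP vs CON. Leaving out the mitochondrial gene with most counts, *mt-Nd1*, took the log2 ratio of mitochondrial to nuclear counts in PAL vs BSA from -0.16 to -0.27. The numbers of called genes over all genes, against which members were read, moved by over 1.5 times in some comparisons. When 1 library was left out they ran from 180 to 343 in CON vs PAL (325 over all libraries), 56 to 217 in BOTH vs CHREBP (138) and 104 to 291 for the interaction (204), lowest without CON replicate 3, CHREBP replicate 3 and CON replicate 3 in turn, and highest in the last 2 without BOTH replicate 4. With the replicate block they were 1188 in PAL vs BSA (1828), 186 in CON vs PAL and 22 in BMAL1 vs CON (68), and edgeR called 53 in BOTH vs CHREBP and 122 for the interaction. With the 2 groups alone they were 80 in BOTH vs CHREBP. Depth limits the low members, and *mt-Nd6* carries no result.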
